A study of Mus musculus with 12 samples.

Results

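The genes described here encode 9 secreted carrier proteins of the visceral endoderm, which were taken by name out of 19938 genes measured: the plasma carriers Ttr, Afp and Trf, and the apolipoproteins Apoa1, Apoa2, Apoa4, Apob, Apoe and Apom. Each had exactly 1 probe set with a single gene symbol, and all 9 are reported. They were chosen with earlier results of these data known. Counts of members called, set beside shares of all genes, are therefore descriptions and not tests of the list. All 12 samples came from the same D3 clone of mouse embryonic stem (ES) cells, and their RNA was read on Affymetrix expression arrays. The groups, with 3 samples each that the labels call biological replicates, were embryoid bodies (EBs, aggregates formed in bacteriological dishes without LIF) treated for 12 h with 5 micromolar all-trans retinoic acid (ATRA), EBs given the solvent DMSO for 12 h, untreated EBs at day 4, and undifferentiated ES cells at day 0. The titles write the treated groups as day 4 plus 12 h, while the treatment protocol places the 12 h within the 4 days, so the age of the treated EBs is not settled, and in the comparison of DMSO with untreated EBs the solvent and any added time cannot be told apart.

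The visceral endoderm is the epithelium that surrounds the epiblast of the early mouse embryo and the inner cells of an embryoid body. Before a liver exists it makes many of the proteins that the liver later secretes into plasma, among them transthyretin, alpha-fetoprotein, transferrin and apolipoproteins, and it takes up maternal protein and lipid through endocytic receptors such as megalin (Lrp2) and cubilin (Cubn). Apolipoprotein B is the structural protein of the large lipoproteins and is loaded with lipid by the microsomal transfer protein (Mttp), whereas the A apolipoproteins, apolipoprotein E and apolipoprotein M sit on the surface of lipoprotein particles. The transcription factors HNF4A, GATA4, GATA6 and the FOXA proteins are known regulators of these genes in endoderm and liver.

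Upstream sequences are shown for 3 members that were higher in EBs than in ES cells and have a promoter window in the RefSeq table of build GRCm38.p6: Apoa1 and Apob, which passed in 4 and 3 of the comparisons below, and Afp, the classical marker of the tissue. Each reads 5′ to 3′ and lies before the annotated start, the Apob sequence ending short of it because the gene's annotation begins earlier, and capitals mark motifs listed after the sequences. The windows are chr9:46228380-46228629 for Apoa1, chr12:7977427-7977628 for Apob and chr5:90490464-90490713 for Afp, all on the plus strand.
Apoa1: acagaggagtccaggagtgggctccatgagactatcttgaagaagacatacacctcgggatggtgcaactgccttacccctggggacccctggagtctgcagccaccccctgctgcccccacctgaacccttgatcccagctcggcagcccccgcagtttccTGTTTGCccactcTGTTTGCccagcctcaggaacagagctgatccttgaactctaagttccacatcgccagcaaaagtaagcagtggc
Apob: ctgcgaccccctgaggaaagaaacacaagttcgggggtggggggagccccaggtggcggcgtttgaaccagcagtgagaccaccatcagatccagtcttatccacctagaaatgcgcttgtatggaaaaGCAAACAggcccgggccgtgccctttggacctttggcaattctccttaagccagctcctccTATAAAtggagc
Afp: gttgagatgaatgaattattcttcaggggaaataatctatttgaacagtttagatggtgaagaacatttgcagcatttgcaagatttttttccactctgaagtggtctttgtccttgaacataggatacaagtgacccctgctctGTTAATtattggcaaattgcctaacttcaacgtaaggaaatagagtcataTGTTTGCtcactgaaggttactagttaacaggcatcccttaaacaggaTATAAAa
The motifs searched, on both strands and over windows of 250 bases before to 50 after the start, were the following. GTTAAT is part of the site of HNF1 factors. CAAAGTC and also AAGGTCA are parts of sites of the HNF4 type. TGTTTAC and also TGTTTGC are forkhead motifs bound by FOXA factors. AGATAA is a motif of the GATA factors, and the TATA box was searched as TATAAA. Of the 9 members, 7 had a window that was searched, in 10 windows altogether, since some genes have several starts. TGTTTGC was found in 3 of the 7 genes, in the Apoa1 window at -88 and -75, in the Apob window on the opposite strand at -121 and in the Afp window at -55, and in 5.07% of all 32851 windows of the table. TATAAA was found in 4 of the 7 genes and in 13.6% of all windows. In these windows it stood at -60 for Apob and at -7 for Afp, positions being those of the leftmost motif base from the annotated start. GTTAAT was found in 2 of the 7 genes, Afp at -105 among them, and in 7.10% of all windows. Of the other motifs, TGTTTAC was found in 2 of the 7 genes and 3.65% of all windows, AAGGTCA in 1 and 4.72%, CAAAGTC in 0 and 4.44%, and AGATAA in 0 and 11.2%. These matches are descriptions of letters, not of bound sites, and the motifs marked in capitals overlap in none of the 3 printed sequences. Member counts are by gene, with a match in any window of the gene, while the shares are by window, so they are unlike measures.

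The deposited values are log2 values, with array medians between 7.76 and 7.86, and replicate arrays correlated at 0.996 to 0.999 over genes. Precision is set by the small number of arrays, 3 in each group. Changes are log2 differences ± SE from a limma fit to all 12 arrays, called at a Benjamini-Hochberg adjusted p under 0.05 over all genes, and levels are log2 means ± SD (n = 3). Levels of different genes are not compared, because probe sets differ in brightness. All 6 measured retinoid response genes of a check list were called higher with ATRA than with DMSO, Cyp26a1, the gene of a retinoic acid-degrading enzyme, by 1.76 ± 0.09. Of 27 measured visceral endoderm markers, 23 were higher and 0 lower in EBs than in ES cells, beside 17.8% and 16.9% of all genes. Their list mean was 9.61 to 9.75 in EBs and 8.61 to 8.68 in ES cells. The marker lists were chosen with earlier results of these data known, so these counts describe the tissue and do not test it. Fetal hepatocyte markers did not follow as measured: 1 of 14 was called higher and 2 lower. Their list mean, 6.88 to 7.02 in EBs and 6.90 to 7.02 in ES cells, lay below the lowest array median. Whether these markers stood above background was not tested. Bulk arrays cannot tell fewer cells of a type from less RNA per cell.

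Over the 4 groups, most of the carrier genes had their means in one order: lowest in ES cells, higher in untreated EBs, and highest in DMSO-treated EBs, with ATRA-treated EBs between the last 2 groups. That order of means held for 6 of the 9 genes, Ttr, Afp, Apoa1, Apoa4, Apob and Apom. The step from ATRA to DMSO was called only for Ttr and Apoa1, so for the rest the place of ATRA rests on means alone. The share of all genes with the same order was not counted. Apoe, Trf and Apoa2 had other orders. The comparisons share control arrays, so they are not independent of each other.

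ATRA against DMSO asks what ATRA changed beyond the solvent. Ttr fell by 0.54 on the log2 scale and Apoa1 by 0.39, and 7 members did not pass. All 9 changes were below 0, those of Apoa2 and Apom each turning above 0 in 1 alternative, with a median of -0.08 against 0.01 over all genes. Of all genes, 7.05% were called lower and 6.26% higher, 13.3% in either direction, beside 2 of 9 members lower and 0 of 9 higher. The values did not overlap for 2 members, Ttr and Apoe, both lower, beside 39.6% of all genes (19.6% higher and 20% lower). Neither call held in every fit with 1 array left out, while the changes stayed below 0 (Ttr -0.63 to -0.45, Apoa1 -0.50 to -0.30). Without DMSO 1 or without ATRA 3, Ttr (log2 changes -0.48 and -0.45) and Apoa1 (-0.35 and -0.30) lost their calls, and Apoa1 also lost its call without DMSO 3 (-0.33) or ATRA 2 (-0.37) and with all probe sets in the fit (adjusted p = 0.0612). Visceral endoderm markers moved beside the members, 2 higher and 12 lower of 27, with a list mean of 9.68 to 9.79 in ATRA-treated EBs and 9.85 to 10.02 in DMSO-treated EBs. The part of these cells in the members' change was not tested.

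DMSO-treated EBs against untreated EBs differed in few genes, and 4 of the carriers were among them. Apoa1 rose by 1.04 ± 0.10 (2.06-fold), Ttr by 0.97 ± 0.12 (1.96-fold), Apob by 0.77 ± 0.11 (1.70-fold) and Apom by 0.54 ± 0.09 (1.45-fold). In the limma fit Apoa1 had the smallest p of all 19938 genes, Ttr ranked 7, Apob 16 and Apom 64. Of all genes, 0.747% were called, 0.537% higher and 0.211% lower, beside 4 of 9 members higher and 0 of 9 lower. The values did not overlap for 6 members, all higher, beside 22.4% of all genes (9.5% higher and 12.9% lower). The members' median change was 0.43, against -0.02 over all genes. Of all genes called here, 71.8% were higher, against 57.7% after quantile normalization and 87% after median centring.

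The adjusted p in this comparison turns on single arrays for the whole table. Without EB 1 or without DMSO 1 limma called 0 genes at all, while 3080 and 2340 genes had an unadjusted p under 0.05. The 4 members kept their direction there, with log2 changes of 1.001 and 1.003 for Apoa1, 0.83 and 0.90 for Ttr, 0.70 and 0.70 for Apob and 0.52 and 0.50 for Apom. Without DMSO 3, Ttr (0.95), Apob (0.78) and Apom (0.47) lost their calls and Apoa1 kept its own. Apom lost its call also without EB 2 (0.52), EB 3 (0.57), ATRA 2 or ATRA 3 (0.54), in the fit to only the 2 groups (adjusted p = 0.0918), and without ES 2 and EB 2 together (0.082). Cyp26a1 also rose with DMSO (0.75 ± 0.09), 1 of 6 retinoid check genes to do so. Of 27 visceral endoderm markers 7 were called higher and 0 lower, and their list mean was 9.85 to 10.02 in DMSO-treated EBs and 9.61 to 9.75 in untreated EBs. Their part in the members' change was not tested.

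ATRA-treated EBs against untreated EBs had 6 of 9 members higher and 0 lower, beside 18.4% of all genes called, 7.79% higher and 10.6% lower. Here ATRA, the solvent and any added time cannot be told apart, and against DMSO 0 of 9 members were called higher. The 6 were Ttr, Afp, Apoa1, Apoa4, Apob and Apom, and none of them overlapped between these groups, beside 36.7% of all genes without overlap (15.6% higher and 21.1% lower). The median change of the members was 0.35, against -0.01 over all genes. Ttr and Apoa1, lower with ATRA than with DMSO, thus stood above untreated EBs with both. Calls of 3 members ended when 1 array was left out. Ttr lost its call without EB 1 (0.29), EB 3 (0.45), ATRA 1 or ATRA 2 (0.38 each). Afp lost its call without EB 1 (0.36), EB 3 (0.25), ATRA 1 or ATRA 2 (0.32 each). Apoa4 lost its call without EB 1 (0.29), EB 3 (0.24) or ATRA 1 (0.26). Ttr and Afp also lost theirs with all probe sets in the fit (adjusted p = 0.0635 and 0.053), and Ttr in the fit to only the 2 groups (0.0609).

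Untreated day 4 EBs were set against ES cells, a step in which time, aggregation and the loss of LIF cannot be told apart. Of the 9 members, 7 rose and 1 fell, beside 34.7% of all genes called, 17.8% higher and 16.9% lower. The values did not overlap for 6 higher members and 1 lower, beside 41.3% of all genes (21.2% higher and 20.1% lower). The median change was 0.40, against -4e-04 over all genes. Ttr rose by 3.19 ± 0.12 (9.10-fold), Apoa1 by 1.56 ± 0.10 (2.96-fold) and Apob by 1.34 ± 0.11 (2.53-fold). The ES means of Ttr (6.94), Apob (6.85), Apom (6.81) and Afp (6.66) lay below the lowest array median, and whether they stood above background was not tested, so the sizes of these rises, as measured, are not ranked. ES 2 and EB 2 had the smallest interquartile ranges of all 12 arrays, and without both of them 6 members were called, with Afp (adjusted p = 0.0565) and Apom (0.108) lost.

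**Figure D1:**
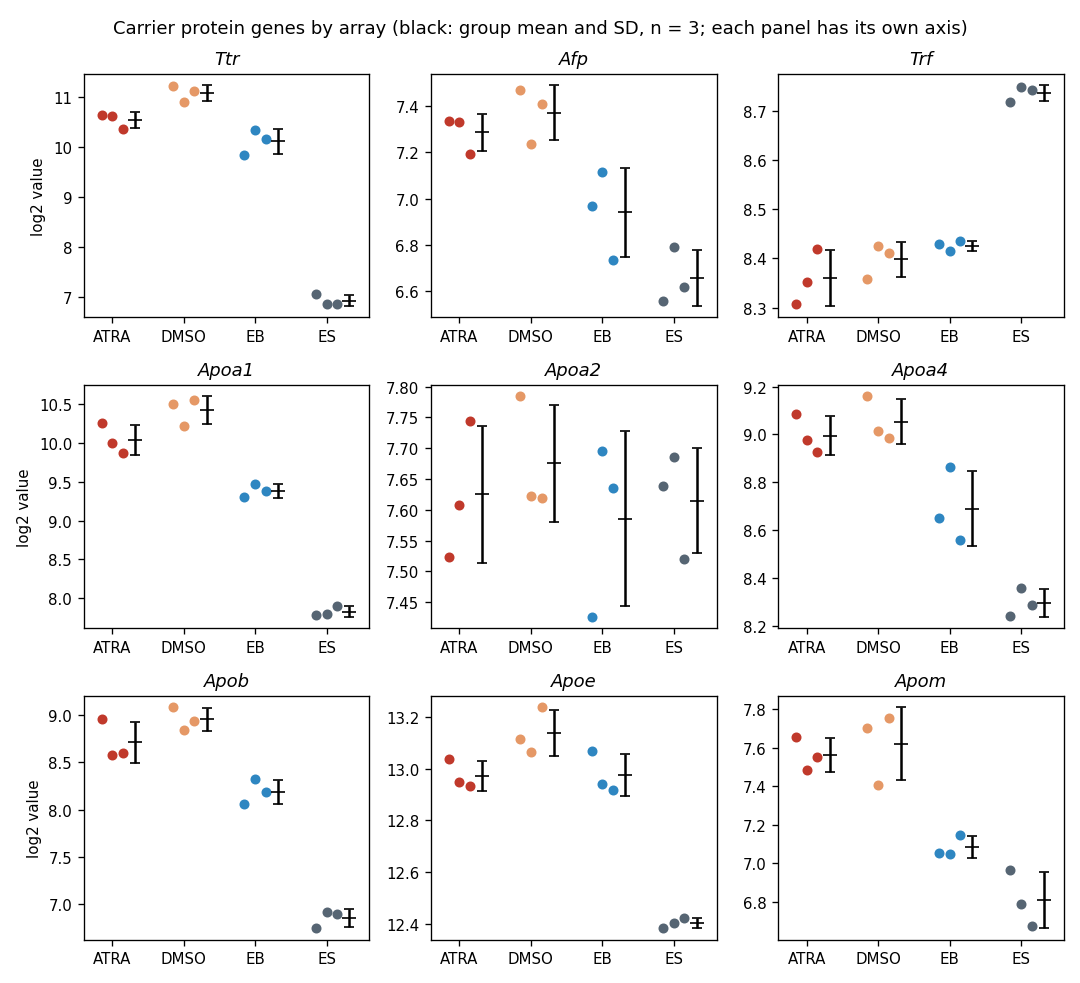
Log2 value (vertical axis, a separate range per gene) of each of the 9 carrier protein genes on each of the 12 arrays, by group, with the group mean and SD (n = 3) in black. Ttr, Apoa1 and Apob stand lowest in ES cells and highest with DMSO, Trf stands highest in ES cells at 8.72 to 8.75, and Apoa2 shows no separation of the groups.

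Among the plasma carriers, Ttr encodes transthyretin, which carries thyroxine and the retinol-binding protein. Its log2 values were 10.64, 10.63 and 10.37 with ATRA, 11.23, 10.92 and 11.13 with DMSO, 9.85, 10.35 and 10.17 in untreated EBs, and 7.06, 6.88 and 6.87 in ES cells. The 4 groups did not overlap anywhere, and ES cells lay far below the rest. Each neighbouring pair in the order of levels passed the test: ATRA against DMSO at -0.54 ± 0.12 (limma, adjusted p = 0.0108), ATRA against untreated EBs at 0.43 ± 0.12 (0.0315), and EBs against ES cells at 3.19 ± 0.12 (1.67e-09).

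Afp encodes alpha-fetoprotein, the albumin-like protein of fetal plasma. Its values were 7.34, 7.33 and 7.19 with ATRA, 7.47, 7.24 and 7.41 with DMSO, 6.97, 7.11 and 6.74 in untreated EBs, and 6.56, 6.79 and 6.62 in ES cells. The range of Afp was narrow, EB 3 lay below ES 2, and both treated groups lay above untreated EBs without overlap. Afp was called higher in EBs than in ES cells by 0.28 ± 0.10 (limma, adjusted p = 0.0386) and with ATRA than in untreated EBs by 0.35 ± 0.10 (0.0261), while DMSO against untreated EBs, at 0.43 ± 0.10, missed the threshold (0.0654). That last comparison did pass after quantile normalization (0.0335), median centring (0.0349), an intensity trend (0.0219), array weights (0.0406) or a filter at the 25th percentile (0.0334). The call against ES cells ended without ES 1, ES 3, EB 1, EB 2, DMSO 3, ATRA 1 or ATRA 2, at log2 changes of 0.20 to 0.28, with all probe sets (0.0724), with only the 2 groups (0.0919) and without ES 2 and EB 2 together.

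Trf encodes transferrin, the iron carrier of plasma, and went the other way. Its values were 8.31, 8.35 and 8.42 with ATRA, 8.36, 8.43 and 8.41 with DMSO, 8.43, 8.42 and 8.43 in untreated EBs, and 8.72, 8.75 and 8.74 in ES cells. ES cells stood above all other arrays, and the 3 EB groups overlapped. Trf fell by 0.31 on the log2 scale in EBs against ES cells (SE 0.04, limma, adjusted p = 1.02e-04), and no comparison among the EB groups passed, at -0.04 ± 0.04 for ATRA against DMSO (95% interval -0.13 to 0.06). Fibroblast markers fell in the same step: of 14 measured, 12 were lower and 0 higher in EBs than in ES cells, with a list mean of 7.84 to 7.95 in EBs and 9.03 to 9.05 in ES cells. The part of fibroblasts in the change of Trf was not tested.

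Of the high-density lipoprotein genes, Apoa1 encodes the main protein of these particles. Its values were 10.25, 10.00 and 9.87 with ATRA, 10.51, 10.22 and 10.55 with DMSO, 9.30, 9.48 and 9.38 in untreated EBs, and 7.77, 7.79 and 7.90 in ES cells. Only ATRA and DMSO overlapped, through ATRA 1 and DMSO 2. Apoa1 rose in EBs against ES cells by 1.56 ± 0.10 (limma, adjusted p = 1.58e-07), with DMSO against untreated EBs by 1.04 ± 0.10 (0.00662) and with ATRA against untreated EBs by 0.65 ± 0.10 (8.03e-04). It fell with ATRA against DMSO by 0.39 on the log2 scale (0.0258).

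Apoa4 encodes apolipoprotein A-IV, which in adults is made mainly in the intestine. Its values were 9.08, 8.98 and 8.93 with ATRA, 9.16, 9.01 and 8.99 with DMSO, 8.65, 8.86 and 8.56 in untreated EBs, and 8.24, 8.36 and 8.29 in ES cells. The treated groups overlapped each other and lay above untreated EBs, which lay above ES cells. Apoa4 rose in EBs against ES cells by 0.40 ± 0.08 (limma, adjusted p = 0.00165) and with ATRA against untreated EBs by 0.31 ± 0.08 (0.017). DMSO against untreated EBs, at 0.36 ± 0.08, missed the threshold (0.0594) but passed after median centring (0.0252), with array weights (0.0349), with an intensity trend (0.0117), under both filters on mean value (0.012 and 0.0298) and without EB 2 (0.45, 0.0393). ATRA and DMSO were not told apart (-0.06, 95% interval -0.23 to 0.11).

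Apoa2 encodes the other abundant protein of high-density lipoproteins. Its values were 7.52, 7.61 and 7.74 with ATRA, 7.78, 7.62 and 7.62 with DMSO, 7.43, 7.70 and 7.64 in untreated EBs, and 7.64, 7.69 and 7.52 in ES cells. All 4 groups overlapped. Apoa2 passed no comparison. EBs against ES cells gave -0.03 with a 95% interval of -0.21 to 0.15, wholly under the rise of 0.40 measured for Apoa4. The group means of Apoa2, 7.59 to 7.68, all lay below the lowest array median of 7.76. Whether they stood above background was not tested, so this contrast with Apoa4 holds only as measured.

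Apoa1 and Apoa4 lie in a cluster in which the RefSeq table orders Apoa1, Apoc3, Apoa4 and Apoa5 next to each other. The cluster mates, singled out after their values were seen, showed no such change as measured. Their means in ES cells, untreated EBs and DMSO-treated EBs were 6.89 to 6.92 for Apoc3 and 7.33 to 7.44 for Apoa5. These lay below the lowest array median of 7.76, and whether they stood above background was not tested. Apoc3, which encodes an inhibitor of lipoprotein lipase, changed by -0.01 ± 0.09 in EBs against ES cells and by 0.03 ± 0.09 with DMSO against untreated EBs. Apoa5, the gene of an activator of triglyceride hydrolysis, changed by 0.06 ± 0.12 and -0.11 ± 0.12 in the same comparisons. Neither gene passed any of the 4 comparisons, with limma adjusted p of at least 0.637 for Apoa5 and 0.661 for Apoc3.

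Apob encodes apolipoprotein B. Its values were 8.96, 8.58 and 8.60 with ATRA, 9.08, 8.85 and 8.93 with DMSO, 8.06, 8.32 and 8.18 in untreated EBs, and 6.74, 6.91 and 6.90 in ES cells. ATRA 1 reached into the DMSO range, and no other pair of groups overlapped. Apob rose in EBs against ES cells by 1.34 ± 0.11 (limma, adjusted p = 7.31e-07), with DMSO against untreated EBs by 0.77 ± 0.11 (0.0119) and with ATRA against untreated EBs by 0.52 ± 0.11 (0.00413). ATRA against DMSO, at -0.24 ± 0.11, did not pass (0.172) and passed without ATRA 1 (-0.37, 0.0235).

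Apoe encodes apolipoprotein E, a ligand of low-density lipoprotein receptors. Its values were 13.04, 12.95 and 12.93 with ATRA, 13.12, 13.06 and 13.24 with DMSO, 13.07, 12.94 and 12.92 in untreated EBs, and 12.38, 12.40 and 12.42 in ES cells. ES cells were separate from all EB arrays, and EBs with ATRA and without treatment overlapped widely. All values on the arrays ran from 2.30 to 14.7. Apoe rose in EBs against ES cells by 0.57 ± 0.06 (limma, adjusted p = 6.62e-06). ATRA against untreated EBs gave 0.00, with a 95% interval of -0.13 to 0.12, and DMSO against untreated EBs gave 0.16 ± 0.06 (0.197). ATRA against DMSO, at -0.17 ± 0.06, missed the threshold (0.0838) although the groups did not overlap, and it passed with an intensity trend (0.0129), with array weights (0.0365) and in the brighter part of the genes, those over the median (0.0308). Apoc1, the gene beside Apoe in the RefSeq order and another surface protein of lipoproteins, rose in EBs against ES cells by 0.56 ± 0.06 (6.06e-06).

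Apom encodes apolipoprotein M, which carries sphingosine-1-phosphate. Its values were 7.65, 7.48 and 7.55 with ATRA, 7.70, 7.41 and 7.76 with DMSO, 7.05, 7.05 and 7.15 in untreated EBs, and 6.96, 6.79 and 6.67 in ES cells. The treated groups overlapped each other and lay clear of untreated EBs. Apom rose with DMSO against untreated EBs by 0.54 ± 0.09 (limma, adjusted p = 0.0311), with ATRA against untreated EBs by 0.48 ± 0.09 (0.00365), and in EBs against ES cells by 0.28 ± 0.09 (0.039). The last call ended without ES 2, ES 3, EB 1, EB 2, EB 3 or ATRA 3, at log2 changes of 0.21 to 0.29, after quantile normalization (0.0609), with all probe sets (0.0729) and without ES 2 and EB 2 together. ATRA and DMSO were not told apart (-0.06, 95% interval -0.27 to 0.15).

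**Figure D2:**
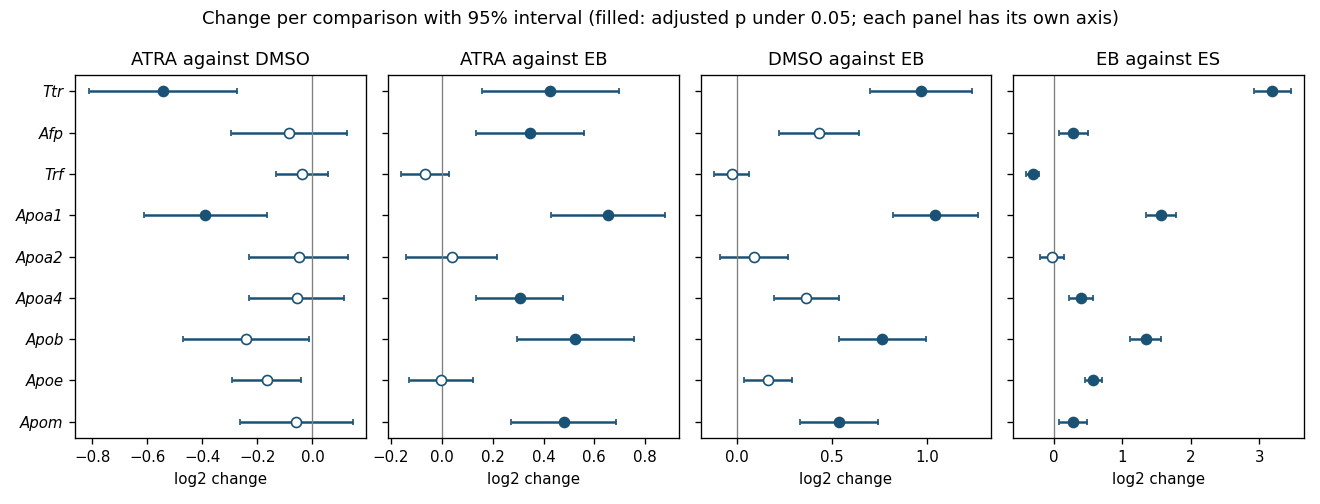
Log2 change with its 95% interval (horizontal axis, a separate range per panel) of the 9 carrier protein genes in the 4 comparisons, filled where the adjusted p was under 0.05. The intervals of all 6 members called with ATRA against untreated EBs lie above 0, while with ATRA against DMSO 2 members are filled, both below 0.

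Other secreted plasma and yolk sac proteins followed the members only in part. Of 25 measured genes, ATRA against DMSO had 1 higher and 2 lower, DMSO against untreated EBs 1 and 0, ATRA against untreated EBs 3 and 3, and EBs against ES cells 6 and 2. Spink1, the gene of a trypsin inhibitor, had values of 7.24, 7.33 and 7.20 with ATRA, 8.39, 7.99 and 8.39 with DMSO, 7.57, 7.72 and 7.84 in untreated EBs, and 6.59, 6.48 and 6.51 in ES cells. No 2 of its groups overlapped. It rose with DMSO against untreated EBs by 0.54 ± 0.10 and fell with ATRA against untreated EBs by 0.46 on the log2 scale, so with ATRA it stood below the untreated level, where the 6 called carriers stood above it. Rbp4, which encodes the retinol carrier that travels with transthyretin, did not pass in EBs against ES cells (0.04 ± 0.11) and was higher with ATRA than in untreated EBs by 0.58 ± 0.11 (limma, adjusted p = 0.00217). Its change with DMSO against untreated EBs, at 0.51 ± 0.11, missed the threshold (0.0539). Igf2 (0.92 ± 0.09) and A2m, the gene of a protease inhibitor of plasma (0.97 ± 0.09), rose in EBs against ES cells, and the copper carrier gene Cp fell (-0.99 ± 0.07). In untreated EBs and ES cells the means of Cp (6.28 and 7.27), Spink1 (7.71 and 6.53) and Rbp4 (7.60 and 7.57) lay below the lowest array median of 7.76. Whether they stood above background was not tested.

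Among other apolipoprotein genes, of 11 measured, 1 was higher and 1 lower with ATRA against DMSO, 1 and 1 with ATRA against untreated EBs, 0 and 0 with DMSO against untreated EBs, and 2 and 1 in EBs against ES cells. Clu, which encodes clusterin (apolipoprotein J), rose with ATRA against DMSO by 0.30 ± 0.06 and fell in EBs against ES cells (-0.79 ± 0.06). Apod, the gene of a lipocalin, fell with ATRA against DMSO (-0.42 ± 0.10). In the 11 genes of DMSO against untreated EBs the largest change was that of Clu, at 0.22 ± 0.06 (limma, adjusted p = 0.103).

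Genes of lipoprotein assembly and lipid transfer were called higher and lower in 4 and 1 of 25 cases with ATRA against DMSO, 8 and 1 with ATRA against untreated EBs, 1 and 0 with DMSO against untreated EBs, and 9 and 5 in EBs against ES cells. The 1 called with DMSO was Mttp, whose product lipidates apolipoprotein B. Mttp had values of 9.45, 9.30 and 9.19 with ATRA, 9.55, 9.24 and 9.58 with DMSO, 8.96, 8.98 and 8.94 in untreated EBs, and 7.85, 7.90 and 8.05 in ES cells. ATRA and DMSO overlapped, and both lay above untreated EBs, as for Apob. Mttp rose by 0.50 ± 0.09 with DMSO against untreated EBs and by 1.02 ± 0.09 in EBs against ES cells, and ATRA against DMSO gave -0.14 ± 0.09 without a call. Abca1, the gene of the transporter that loads lipid onto apolipoprotein A-I, fell with ATRA against DMSO (-0.29 ± 0.05), and Pltp, the phospholipid transfer protein gene, rose (0.33 ± 0.04). In EBs against ES cells the lipid droplet gene Plin2 (-0.96 ± 0.05), the triglyceride synthesis gene Dgat2 (-0.81 ± 0.06) and the lipase gene Lpl (-0.92 ± 0.08) fell.

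Receptors and endocytic adaptors of the carriers rose in 11 of 16 cases in EBs against ES cells with 0 lower. With DMSO against untreated EBs 0 of 16 passed, beside 0.747% of all genes. Lrp2 had values of 11.83, 11.58 and 11.59 with ATRA, 12.04, 11.85 and 11.98 with DMSO, 11.75, 11.91 and 11.81 in untreated EBs, and 8.44, 8.37 and 8.51 in ES cells. All EB groups lay far above ES cells, and untreated EBs overlapped both treated groups. Lrp2 rose in EBs against ES cells by 3.39 ± 0.08, and DMSO against untreated EBs gave 0.13 ± 0.08 without a call (95% interval -0.04 to 0.30), beside rises of 1.04 for Apoa1 and 0.97 for Ttr. With ATRA against DMSO, 4 of the 16 were higher and 3 lower. Stra6, the receptor of the retinol-binding protein (1.95 ± 0.06), Lrp1 (0.42 ± 0.07) and the transferrin receptor gene Tfrc (0.27 ± 0.05) were higher, and the adaptor gene Dab2 (-0.35 ± 0.06) and Lrp2 (-0.29 ± 0.08) were lower. With ATRA against untreated EBs 4 were higher and 0 lower.

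Genes of iron handling, the partners of Trf, were called higher and lower in 2 and 2 of 18 cases with ATRA against DMSO, 1 and 2 with ATRA against untreated EBs, 0 and 0 with DMSO against untreated EBs, and 7 and 3 in EBs against ES cells. In the last, while Trf fell, Tfrc rose by 0.53 ± 0.05, the iron exporter gene Slc40a1 by 1.99 ± 0.13 and the haem oxygenase gene Hmox1 by 0.71 ± 0.05, and the endosomal ferrireductase gene Steap3 fell (-1.31 ± 0.06). With ATRA against DMSO, Steap3 rose (0.47 ± 0.06) and the metal importer gene Slc39a14 fell (-0.46 ± 0.05).

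Of the endoderm and liver transcription factors, 3 were higher and 2 lower of 23 with ATRA against DMSO, 3 and 2 with ATRA against untreated EBs, 2 and 0 with DMSO against untreated EBs, and 10 and 6 in EBs against ES cells. Hnf4a had values of 10.33, 10.22 and 10.19 with ATRA, 10.76, 10.53 and 10.72 with DMSO, 10.11, 10.33 and 10.26 in untreated EBs, and 9.13, 9.11 and 9.14 in ES cells. DMSO stood apart above the other EB groups, which overlapped. Hnf4a rose with DMSO against untreated EBs by 0.44 ± 0.07 and fell with ATRA against DMSO (-0.42 ± 0.07), and ATRA against untreated EBs gave 0.01 ± 0.07, where Apoa1, Apob and Ttr were higher. Gata6 had values of 11.85, 11.81 and 11.81 with ATRA, 11.49, 11.31 and 11.40 with DMSO, 11.11, 11.17 and 11.17 in untreated EBs, and 10.90, 10.94 and 10.91 in ES cells. Its order differed from that of every member, with ATRA highest: it rose with ATRA against DMSO by 0.42 ± 0.05. Zfhx3, which encodes a repressor of Afp, rose with ATRA against DMSO by 0.58 ± 0.07, and Nr5a2, an orphan nuclear receptor gene, fell (-0.65 ± 0.05).

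**Figure D3:**
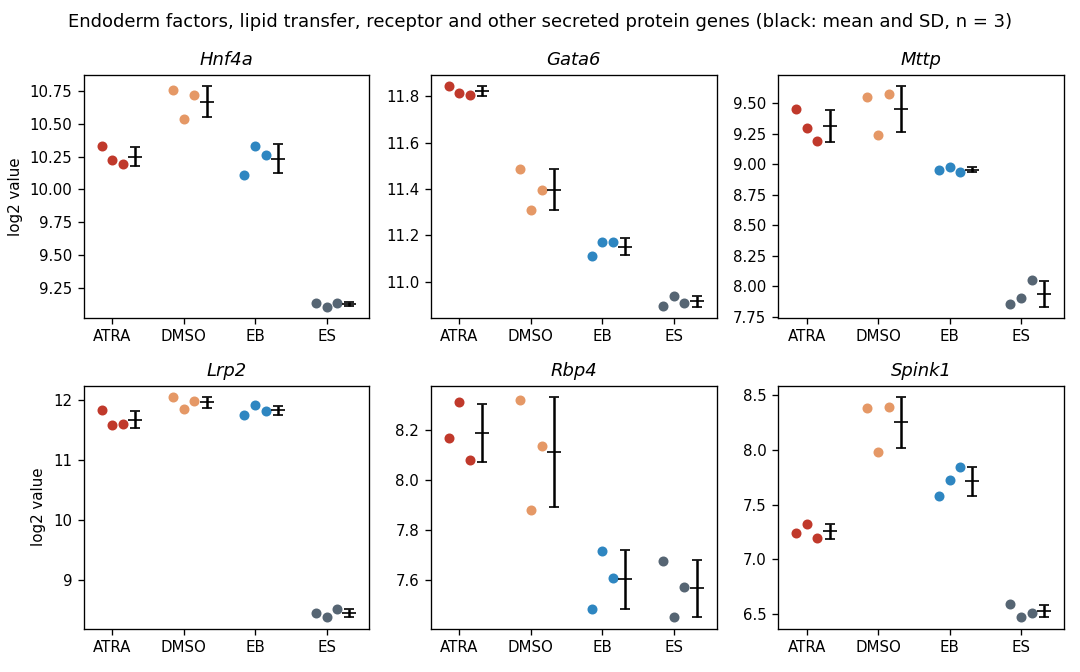
Log2 value (vertical axis, a separate range per gene) of 6 genes from the partner lists on each array, by group, with the mean and SD (n = 3) in black. Hnf4a and Spink1 are highest with DMSO, Gata6 is highest with ATRA at 11.81 to 11.85, and Lrp2 is at 8.37 to 8.51 in ES cells and at 11.58 to 12.04 in the EB groups.

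Markers of other cell types were read beside the members. With DMSO against untreated EBs, where 4 members rose, 0 of 16 parietal endoderm, 0 of 14 fetal hepatocyte, 0 of 12 macrophage, 0 of 14 fibroblast, 0 of 16 blood and endothelium and 0 of 14 pluripotency markers passed in limma, and of the definitive endoderm markers 1 of 11 was higher, Tmprss2 (0.75 ± 0.11). Of the trophoblast list, the keratin genes Krt18 (0.44 ± 0.07) and Krt8 (0.24 ± 0.05) were higher, 2 of 11. Only 0.747% of all genes were called in this comparison, so lists with 0 calls are not set apart from all genes. The fetal hepatocyte and macrophage lists had means of 6.88 to 7.02 and 6.91 to 7.13 over the 12 arrays, below the lowest array median of 7.76. In EBs against ES cells, the calls up and down were 10 and 3 of 16 (parietal endoderm), 7 and 0 of 11 (definitive endoderm), 5 and 0 of 11 (trophoblast), 1 and 0 of 12 (macrophage), 2 and 3 of 16 (blood and endothelium) and 4 and 2 of 14 (pluripotency). With ATRA against DMSO they were 2 and 4 (parietal endoderm), 1 and 1 (definitive endoderm), 1 and 3 (trophoblast), 1 and 0 (macrophage), 4 and 2 (blood and endothelium) and 1 and 6 (pluripotency), beside 0 and 1 of 14 fetal hepatocyte and 2 and 3 of 14 fibroblast markers. With ATRA against untreated EBs they were, in the same list order, 2 and 3, 3 and 1, 3 and 1, 0 and 0, 1 and 2, and 1 and 4, beside 0 and 1 of 14 fetal hepatocyte, 2 and 4 of 14 fibroblast and 4 and 2 of 27 visceral endoderm markers. The parietal endoderm list had means of 10.50 to 10.60 with ATRA, 10.52 to 10.58 with DMSO, 10.48 to 10.52 in untreated EBs and 10.16 to 10.19 in ES cells. Some genes stand in several lists.

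Genes with the pattern most like the members were ranked by Pearson correlation over the 12 arrays among 531 genes with an SD of at least 0.5, as a description over arrays that share groups and control samples. For the mean of the 9 standardized profiles these were Slc7a8, Mttp, Fmo1, St3gal6 and Stard10 (0.951 to 0.964). For Ttr they were Gpc3, Clic6, Cldn6, S100a1 and Ldhb (0.996 to 0.997), and for Apoe they were Pth1r, Clic5, Plbd1, Gna14 and Crtac1 (0.980 to 0.985). For Trf the 5 nearest were Msln, Serpinb8, Anxa3, Adgrl3 and Ccl2 (0.986 to 0.988), all with their highest mean in ES cells, such as Serpinb8 at 6.33 with ATRA, 6.63 with DMSO, 6.76 in untreated EBs and 8.15 in ES cells.

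Within groups, several members deviated together. DMSO 2 lay below its group mean for 8 of the 9 members, all but Trf, with a deviation of -0.22 for Apom and -0.20 for Apoa1, and its visceral endoderm list mean was 9.85, against 10.02 and 10.00 in the other DMSO arrays. ATRA 1 lay above its group mean for 7 of the 9, by 0.25 for Apob and 0.21 for Apoa1, and its list mean was 9.79, against 9.72 and 9.68 in the other ATRA arrays. After group means were removed, Apoa1 and Apob correlated at 0.82, Afp and Apoa4 at 0.84, and Trf and Apoa1 at -0.72 over the 12 arrays. These are the highest and the lowest of all member pairs, as a description over arrays that share their groups. Other pairs lay between, such as Apoa4 and Apom at -0.03, Ttr and Apoe at -0.14 and Apoa2 and Apoe at -0.65. The part of tissue makeup or array quality in these deviations was not tested.

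**Figure D4:**
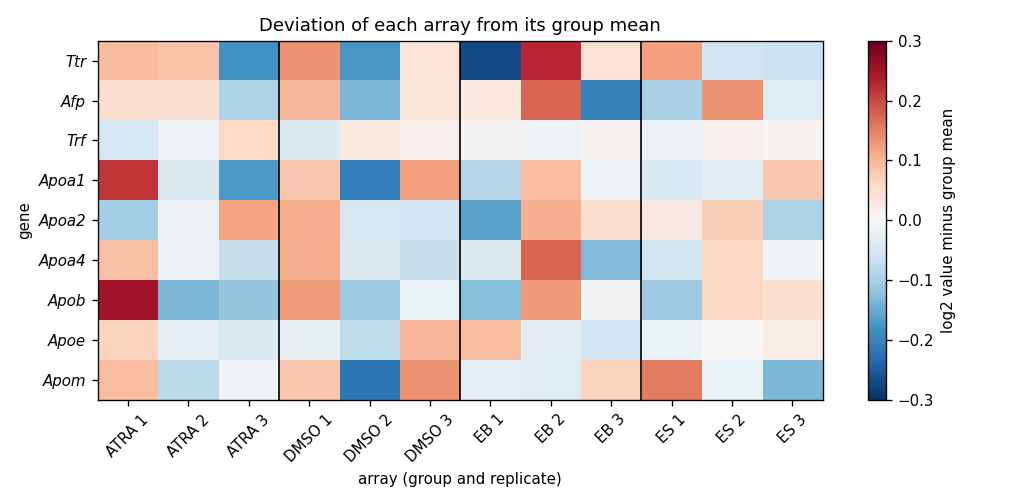
Difference of each array from its group mean on the log2 scale (colour) for the 9 carrier protein genes (rows) on the 12 arrays (columns, by group and replicate). DMSO 2 is below 0 for 8 of the 9 genes and ATRA 1 is above 0 for 7 of them.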

How the data were processed

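Total RNA of 12 samples was hybridised to Affymetrix arrays after conversion with the Ambion WT Expression kit, per the labels' protocols. The authors deposited 1 table of log2 values for 35556 probe sets. That the scale is log2 follows from their range, since no header or label names a log base. How the authors corrected background, normalized and summarized probes is not given in the sources used here. Of the probe sets, 21789 had 1 symbol in the platform annotation, 1621 several and 12146 none listed. Looking up the first in RefSeq's gene table (GRCm38.p6) matched 21698 and altered 0 names. Where a symbol had several such probe sets, the brightest on average was kept, which gave 19938 genes, and low values were not filtered. At most 0.0562% of values were identical between 2 arrays.

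Group means over the 12 arrays were fitted with limma 3.58.1 (R 4.3.3) and moderated by eBayes, leaving 8 residual degrees of freedom and adding 3.93 from the prior. Tests were two-sided, with Benjamini-Hochberg adjustment over all genes and a threshold of 0.05, and the code was tested on simulated data. Alternatives covered normalization, filters, probe sets, the variance model, arrays left out and a replicate block. What separates the labelled biological replicates (cultures or days) is not given in the sources used here, so p-values measure the spread between these samples. All 9 members are named, and in each list and comparison the rule allows 4 called genes at most, those of lowest adjusted p, or where none passed the 2 that moved furthest. Not every gene allowed is printed. A few named beside those genes (Apoc3, Apoa5, Hhex and Dkk1, and Lrp2, Mttp, Rbp4 and Hnf4a in further comparisons) were chosen after their values were seen. The members, lists and alternatives were chosen with earlier results of these data known. Some list genes were not analysed here. Promoter sequences are from RefSeq, build GRCm38.p6.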

Additional observations from a re-analysis of the deposited data

How the results depend on the processing

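Of 848 repeats over members, comparisons and alternatives, 765 kept their side of the threshold, 67 lost a call and 16 gained one. The sign changed in 11 of them, all for changes near 0 without a call: Apoe (4) and Apoa2 (2) in ATRA against untreated EBs, Apoa2 (3) in EBs against ES cells, and Apoa2 (1) and Apom (1) in ATRA against DMSO. At an adjusted p of 0.01 the members called numbered 0 (ATRA against DMSO), 3 (ATRA against untreated EBs) and 1 (DMSO against untreated EBs), and all genes called 1605, 2126 and 5, with all 5 among the 149. With the dimmer genes left out up to the median, 3898 genes were called for ATRA against untreated EBs and 5669 for EBs against ES cells, 3 and 5 of them members. Afp, Apoa2, Apob and Apom had no value there, so these counts do not compare with the 6 and 8 called among all 9 members. With all probe sets 1 member was called for ATRA against DMSO, and with array weights 4311 genes changed in place of 2655. The number of genes changed with DMSO against untreated EBs depended most on the settings: 149 became 253 (quantile normalization), 761 and 365 (above the median and the 25th percentile), 476 (all probe sets), 626 (intensity trend), 25 (only the 2 groups) and 27 (without ES 2 and EB 2), and the cause was not tested. With 1 array left out it lay between 0 and 237, and members called lay between 0 and 4 there, 0 and 3 for ATRA against DMSO, 3 and 6 for ATRA against untreated EBs and 6 and 8 for EBs against ES cells. Besides the arrays named above, this number was 2 without DMSO 3, 33 without EB 2, 48 without EB 3, 74 without ES 3, 237 without ES 1 and 70, 56 and 73 without ATRA 1, 2 and 3.

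The replicate numbers were not taken as pairs, because the labels state no block. Deviations of same-numbered EB and ES arrays correlated at 0.303, 0.506 and -0.065 over genes. In the comparisons among the EB groups these correlations lay between -0.126 and 0.088. What same-numbered EB and ES arrays share was not tested. With the replicate number as a block, 62 genes changed with DMSO against untreated EBs, 56 of them among the 149, and the members called stayed at 2, 6, 4 and 8.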

Other observations

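Among visceral endoderm markers that are no carrier genes, Cer1 and Lhx1, known in the mouse embryo for the anterior visceral endoderm, rose with DMSO against untreated EBs by 0.66 ± 0.09 and 0.64 ± 0.09 and fell with ATRA against DMSO (-0.90 ± 0.09 and -0.69 ± 0.09). Hhex (0.04 ± 0.09, limma, adjusted p = 0.838) and Dkk1 (-0.04 ± 0.10, 0.858) of the same list did not pass with DMSO against untreated EBs. In that comparison 7 of the 27 measured markers were called higher and 20 were not called. Cer1 had log2 values of 6.61, 6.40 and 6.54 with ATRA, 7.54, 7.37 and 7.34 with DMSO, and 6.70, 6.91 and 6.67 in untreated EBs, so ATRA and DMSO did not overlap. All these values lay below the lowest array median of 7.76, and whether they stood above background was not tested. Neither Cer1 nor Lhx1 passed in ATRA against untreated EBs, where Apoa1 was higher by 0.65 ± 0.10 (limma). Ctsh, a cathepsin gene, rose with DMSO by 0.55 ± 0.08 and in EBs against ES cells by 2.99 ± 0.08.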
